A study of Mus musculus with 8 samples.

Results

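The genes described are 10 components of the Rac-driven engulfment machinery of macrophages (Mϕ), taken by name from the 55359 genes of the deposited table: Elmo1, Elmo2, Dock1, Dock2, Rac1, Rac2, Crk, Gulp1, Vav1 and Rhoa. All 10 were found by their Ensembl identifiers, and 9 of them had a mean of at least 10 normalized counts and entered the test, Gulp1 being the exception. A normalized count is the number of reads on a gene divided by 1 size factor per sample.

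Total RNA was sequenced in 8 samples of bone marrow-derived Mϕ (BMDMs) from adult male and female C57BL/6 wildtype mice, in 4 groups of 2 samples, to ask how prior uptake of apoptotic cells alters the response to an inflammatory stimulus. All BMDMs were differentiated with M-CSF and GM-CSF (20 ng/mL each) for 7 days (6 in the treatment protocol) and isolated as CD45+ cells before lysis. Ctrl denotes naïve, unstimulated BMDMs, and LPS denotes naïve BMDMs stimulated over 6 h with 100 ng/mL LPS plus 100 U/mL IFNγ. Eff denotes BMDMs kept for 16 h with apoptotic NIH-3T3 cells, 5 per Mϕ, in the presence of 10 nM dimerizer, and LPSEff denotes BMDMs that were washed after the same co-culture and then given LPS/IFNγ for 6 h. The NIH-3T3 cells (NIH-3T3 CA in the study's methods, a single clone) were mouse fibroblasts carrying a caspase-8 domain that the dimerizer activates, so that the prey RNA in these samples is also mouse RNA. Whether Ctrl received dimerizer, and whether the samples of a group came from separate animals, is not stated in the sources used here, and the p-values measure the spread between these samples, which may be technical.

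Engulfment of a dying cell is driven by actin polymerization beneath the phagocytic cup. The small GTPase Rac switches on the WAVE complex and with it Arp2/3-dependent branching of actin, and the scaffold ELMO together with a DOCK protein forms a bipartite exchange factor that loads Rac with GTP. Crk is an adaptor that links phosphorylated docking proteins to DOCK1, GULP1 is an adaptor of the engulfment receptors of the LRP1 and MEGF10 type, VAV1 is an exchange factor activated by tyrosine kinases downstream of Fc receptors and integrins, and RhoA acts through ROCK on myosin and is known to oppose uptake of apoptotic cells.

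The markers of the label were read in all groups. All 10 Mϕ markers were above 3 reads in every group, led by Lyz2, a lysozyme of myeloid cells, and the summed level of 8 lymphocyte markers was at most 28.5 normalized counts. The bar of 3 reads does not set Mϕ apart, since in Ctrl 15 of 20 fibroblast, 7 of 8 dendritic cell and 6 of 8 neutrophil markers also exceeded it. The summed level of the Mϕ markers was between 111417 and 113208 in Ctrl. Recovered reads ranged from 3481288 to 12020918 per sample, so that 3 reads were worth between 1.73 and 5.71 normalized counts. The summed level of 20 fibroblast markers was 594 and 599.7 in the Ctrl samples, between 2418 and 4621 in LPS, between 2521 and 5001 in Eff and between 7220.0 and 8539 in LPSEff. The highest of these markers was Lox in Ctrl and LPS and Col1a2 in Eff and LPSEff. Lox stood at 3620 and 1335 in the LPS samples and at 131 and 425 in the Eff samples. Col1a2 stood at 28.5 and 83.3 in the LPS samples and at 582 and 1107 in the Eff samples. Of the 18 fibroblast markers tested, 7 were higher in Eff than in Ctrl and 8 in LPSEff than in LPS, 4 were higher in LPS than in Ctrl and 2 in LPSEff than in Eff. Of all 16309 tested genes, 35, 119, 2015 and 1753 were called higher in these comparisons, in the same order. Of all 20 fibroblast markers, 5 were at no more than 3 reads in both Ctrl samples, 2 in LPS, 0 in Eff and 1 in LPSEff. With stimulation, other marker lists moved as well. The summed level of 8 dendritic cell markers lay between 4551 and 9693 in Ctrl and between 10663 and 24111 in LPS, and that of the neutrophil markers between 643 and 973 in Ctrl and between 1534 and 1745 in LPS. In the efferocytic groups the dendritic cell sum lay between 2685 and 6085 in Eff and between 8345 and 12940 in LPSEff. The neutrophil sum lay between 1058 and 1399 in Eff, above both Ctrl samples, and between 1612 and 2176 in LPSEff. The highest dendritic cell marker was Itgax in Ctrl and Ccr7 in LPS. Ccr7 stood at 1839 and 2128 in Ctrl and at 7649 and 14409 in LPS. Itgax stood at 2386 and 6771 in Ctrl and at 2150 and 6898 in LPS. The part of prey RNA or of other cells in the values of the engulfment genes was not tested.

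Elmo2, Dock1 and Dock2 are the members called lower after LPS/IFNγ over naïve and efferocytic cells together, and their promoters are shown from 250 bases before to 50 bases after the canonical transcription start (GRCm39, read from the genome sequence with GENCODE starts), 5′ to 3′ on the strand of the gene. Capitals mark CG dinucleotides, which are dense in the promoters of broadly expressed genes.
Elmo2 (chr2:165168389-165168688, - strand): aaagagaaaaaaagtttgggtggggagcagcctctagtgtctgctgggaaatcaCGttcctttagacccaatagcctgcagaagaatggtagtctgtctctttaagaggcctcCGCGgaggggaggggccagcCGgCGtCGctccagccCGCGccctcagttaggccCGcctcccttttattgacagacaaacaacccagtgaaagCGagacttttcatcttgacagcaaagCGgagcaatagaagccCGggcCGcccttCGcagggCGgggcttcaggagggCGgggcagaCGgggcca
Dock1 (chr7:134272122-134272421, + strand): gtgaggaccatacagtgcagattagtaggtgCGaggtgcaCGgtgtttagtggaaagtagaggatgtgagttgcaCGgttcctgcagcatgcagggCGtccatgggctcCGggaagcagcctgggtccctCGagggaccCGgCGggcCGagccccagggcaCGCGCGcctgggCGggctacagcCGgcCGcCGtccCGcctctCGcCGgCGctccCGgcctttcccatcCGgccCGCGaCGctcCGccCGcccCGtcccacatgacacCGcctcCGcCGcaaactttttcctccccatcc
Dock2 (chr11:34674749-34675048, - strand): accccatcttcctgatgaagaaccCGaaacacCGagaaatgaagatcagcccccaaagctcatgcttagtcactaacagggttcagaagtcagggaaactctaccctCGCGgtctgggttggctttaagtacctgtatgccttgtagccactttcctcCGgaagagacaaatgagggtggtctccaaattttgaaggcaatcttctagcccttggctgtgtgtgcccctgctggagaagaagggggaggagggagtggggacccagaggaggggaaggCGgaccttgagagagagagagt

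The Dock1 promoter held 31 CG dinucleotides and that of Dock2 held 6, against a median of 11.0 over 21757 protein-coding promoters of the same length. The promoter of Elmo2 held 17, that of Elmo1 6, that of Rac1 39 and that of Rac2 2. DOCK2 and RAC2 are known as the forms of haematopoietic cells, whereas DOCK1 and RAC1 are known from many tissues. Motifs were searched on both strands. A GAGGAAGT match to the PU.1 motif, the binding sequence of a myeloid lineage factor, stood in the promoters of Rac2 (bases -173 to -166 from the start, on the opposite strand) and Vav1 (bases -6 to 2), and 3.07% of all promoters held it. None of the 10 promoters held the interferon-stimulated response element GAAANNGAAA (3.84% of all promoters), the GAS element TTCNNNGAA (8.82%), the AP-1 site TGANTCA (7.15%) or the NF-κB motif (8.97%) in this window.

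No window of 50 bases, the number of sequencing cycles, was shared between the coding sequences of Elmo1 and Elmo2 or of Dock1 and Dock2. Of the 50-base windows of the Rhoa transcript, 22.8% also occurred in other genes, most of them without a name beyond a Gm number, and its level is therefore uncertain. For Rac1 this share was 2.49%, and for the other members it was at most 0.699%. Exons of Rac1 overlap those of Daglb on the opposite strand over 2682 of 4781 bases.

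Levels were compared between genes per kilobase of merged exons. In Ctrl, Rac2 was the highest at 438 ± 18.1 normalized counts per kilobase (SD, n = 2), followed by Vav1 (319 ± 18.5), Rac1 (251 ± 22.6), Dock2 (209 ± 10.9), Crk (162 ± 7.88), Rhoa (108 ± 10.2), Elmo2 (71.9 ± 0.480), Dock1 (57.7 ± 5.88), Elmo1 (40.1 ± 5.77) and Gulp1 (0.464 ± 0.350). No neighbours in this order overlapped in their samples. All 4 genes of the bipartite exchange factor stood below both Rac genes in Ctrl per kilobase of merged exons, but not with the length of the canonical transcript, by which Dock2 was at rank 3 and Rac1 at rank 5. Dock2 exceeded Dock1 in all 8 samples.

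In LPS the order became Rac2, Rac1, Vav1, Crk, Dock2, Rhoa, Dock1, Elmo1, Elmo2 and Gulp1. The samples of Rac1 and Vav1, of Dock2 and Rhoa, of Dock1 and Elmo1 and of Elmo1 and Elmo2 overlapped. In Eff only Dock2 and Crk overlapped among neighbours, and in LPSEff Vav1 overlapped Rac1 and Rhoa overlapped Dock2. Rac2 was at the top and Gulp1 at the bottom in all 4 groups. With the length of the canonical transcript, an alternative added after the values had been seen, Rhoa moved from rank 6 to rank 2 in Ctrl and LPS and to rank 1 in Eff, and from rank 5 to rank 2 in LPSEff, since its merged exons (8245 bases) are longer than its canonical transcript (2206 bases).

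Gulp1 was near the detection limit throughout. It had 3 reads in each Ctrl sample, 11 and 3 in the LPS samples, 0 and 5 in the Eff samples and 7 and 3 in the LPSEff samples, and its highest value was 14.2 normalized counts in a single LPS sample. At this depth no difference between the groups was detectable, and no fold change is given.

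**Figure D1:**
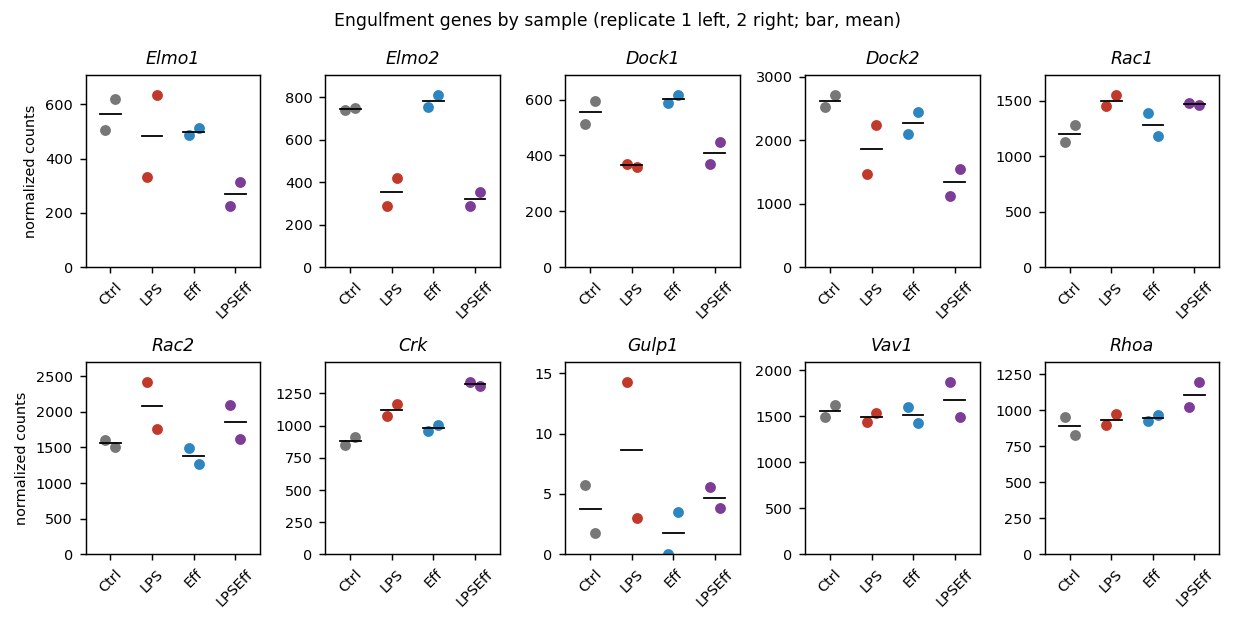
Normalized counts of the 10 engulfment genes (y axis, starting at 0) in each sample of Ctrl, LPS, Eff and LPSEff (x axis), with replicate 1 at the left, replicate 2 at the right and the mean of 2 samples as a bar. Elmo2 lies between 741 and 809 in the 4 unstimulated samples and between 287 and 418 in the 4 stimulated ones.

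The scaffold Elmo2 (ENSMUSG00000017670, chr2:165129951-165168438, minus strand) fell with LPS/IFNγ. Its normalized counts were 741 and 748 in Ctrl samples, 287 and 418 in LPS samples, 754 and 809 in Eff samples and 287 and 353 in LPSEff samples. All stimulated samples lay below all unstimulated ones, while the Eff samples were slightly above those of Ctrl and the LPSEff samples within the range of LPS. The log2 fold change was -1.10 (SE 0.22, limma adjusted p = 0.0092) in naïve Mϕ, a 2.14-fold decrease, and -1.29 (SE 0.22, limma adjusted p = 0.0054) in efferocytic Mϕ, a 2.45-fold decrease. The difference between these effects was -0.19 on the log2 scale, with a 95% interval from -0.91 to 0.53 (limma adjusted p = 0.9999). The decrease in naïve Mϕ just missed the threshold without Ctrl replicate 1 (adjusted p = 0.0538) or Ctrl replicate 2 (0.0529), over a range from 0.0003 to 0.0538 for all its alternatives, and the decrease in efferocytic Mϕ passed in all 18 alternatives.

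The Rac exchange factor Dock1 (ENSMUSG00000058325, chr7:134272372-134775375, plus strand) was also lower after stimulation. It stood at 514 and 594 normalized counts in Ctrl samples, 369.9 and 359 in LPS samples, 589.7 and 616 in Eff samples and 369.7 and 448 in LPSEff samples. Again no stimulated sample reached the lowest unstimulated one. The log2 fold change was -0.60 (SE 0.18, limma adjusted p = 0.0470) in naïve Mϕ and -0.57 (SE 0.18, limma adjusted p = 0.0651) in efferocytic Mϕ. The call in naïve Mϕ was lost when any single sample of the 8 was left out, with adjusted p from 0.0578 to 0.215, and with DESeq2 (0.0709), and it held in 7 of 18 alternatives.

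Dock2, the DOCK protein of haematopoietic cells (ENSMUSG00000020143, chr11:34176815-34674798, minus strand), had 2517 and 2711 normalized counts in Ctrl samples, 1469 and 2241 in LPS samples, 2095 and 2438 in Eff samples and 1125 and 1552 in LPSEff samples. The LPS samples lay below Ctrl and the LPSEff samples below Eff, although LPS replicate 2 exceeded Eff replicate 1. The log2 fold changes of -0.53 (SE 0.25, limma adjusted p = 0.179) in naïve and -0.77 (SE 0.25, limma adjusted p = 0.0670) in efferocytic Mϕ did not pass. Both passed with equal totals and quantile normalization, and in efferocytic Mϕ the decrease also passed with edgeR (adjusted p = 0.0486) and DESeq2 (0.0241), over a range of adjusted p from 0.0023 to 0.322.

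Elmo1 (ENSMUSG00000041112, chr13:20274428-20792523, plus strand), the paralogue of Elmo2, was at 507 and 621 in Ctrl samples, 332 and 634 in LPS samples, 485 and 512 in Eff samples and 224 and 312 in LPSEff samples. Of the LPS samples 1 lay below and 1 above both Ctrl samples, and LPSEff was the only group whose samples both lay below all others. The log2 fold change of LPSEff against Eff was -0.91 (SE 0.31, limma adjusted p = 0.0801) and that of LPS against Ctrl -0.29 (SE 0.31, limma adjusted p = 0.567). The former passed with equal totals, quantile normalization and DESeq2 (adjusted p = 0.0327), over a range from 0.0036 to 0.336. LPSEff against LPS gave -0.79 (SE 0.31, limma adjusted p = 0.428).

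Rac2, the Rac isoform of haematopoietic cells (ENSMUSG00000033220, chr15:78443367-78457429, minus strand), had 1601 and 1511 normalized counts in Ctrl samples, 2411 and 1752 in LPS samples, 1491 and 1265 in Eff samples and 2089 and 1617 in LPSEff samples. All stimulated samples lay above all unstimulated ones. The log2 fold changes were 0.40 in naïve and 0.42 in efferocytic Mϕ (SE 0.22 each), with limma adjusted p of 0.24 for both. Rac1 (ENSMUSG00000001847, chr5:143489389-143514493, minus strand), the ubiquitous isoform, ranged from 1123 to 1388 in unstimulated and from 1449.9 to 1549.7 in stimulated samples, with log2 fold changes of 0.32 (limma adjusted p = 0.224) and 0.20 (0.477).

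Crk (ENSMUSG00000017776, chr11:75570085-75597737, plus strand) stood at 853 and 914 in Ctrl samples, 1075 and 1168 in LPS samples, 958 and 1007 in Eff samples and 1336 and 1307 in LPSEff samples. The highest samples were those of LPSEff, and the stimulated samples did not overlap the unstimulated ones. The log2 fold changes were 0.34 (SE 0.16, limma adjusted p = 0.168) in naïve and 0.43 (SE 0.16, limma adjusted p = 0.103) in efferocytic Mϕ.

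Vav1 (ENSMUSG00000034116, chr17:57586095-57636235, plus strand) was between 1426 and 1869 normalized counts in all 8 samples, with overlap between stimulated and unstimulated Mϕ. Its 95% interval for LPS against Ctrl ran from a 0.714-fold to a 1.28-fold change. Rhoa (ENSMUSG00000007815, chr9:108182242-108215142, plus strand) was between 831 and 1192, with the highest values in LPSEff (1022 and 1192), and its interval for LPS against Ctrl ran from 0.794-fold to 1.38-fold.

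**Figure D2:**
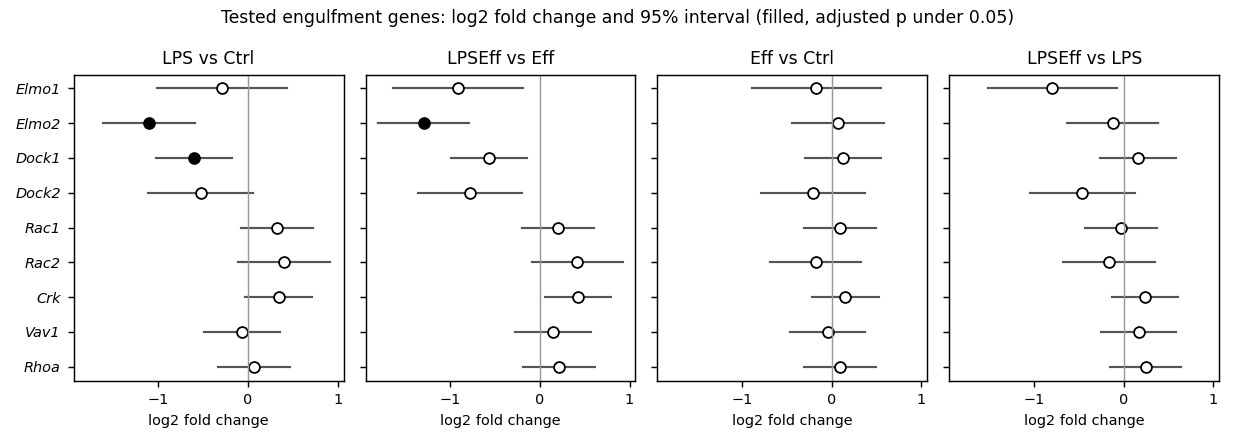
Log2 fold change (x axis) of the 9 tested engulfment genes (y axis) in the 4 pairwise comparisons, with 95% intervals as lines and filled points where the limma adjusted p was under 0.05. Filled points are Elmo2 in both LPS/IFNγ comparisons and Dock1 in LPS vs Ctrl.

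In LPS vs Ctrl, 2 of 9 members were called, both lower, beside 24.0% of all 16309 tested genes called and 11.6% called lower. In LPSEff vs Eff, 1 of 9 was called, also lower, beside 19.7% and 8.95% of all genes. The median log2 fold change of the members was -0.07 and 0.15, and that of all tested genes was -0.01 and 0.01. A lower level in bulk RNA cannot separate fewer cells of a type from less RNA per cell.

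With the 2 contexts averaged, 4 stimulated samples faced 4 unstimulated ones. Elmo2 was lower by a log2 fold change of -1.20 (SE 0.16, limma adjusted p = 0.0006), Dock2 by -0.65 (SE 0.18, limma adjusted p = 0.0220) and Dock1 by -0.58 (SE 0.13, limma adjusted p = 0.0087), and Crk was higher by 0.39 (SE 0.11, limma adjusted p = 0.0291), all with the deposited scaling. In all, 4 of 9 members were called, 3 lower and 1 higher, beside 36.5% of all genes called, 18.6% lower and 17.9% higher. Elmo1 (-0.60, adjusted p = 0.0665), Rac2 (0.41, adjusted p = 0.0739) and Rac1 (0.26, adjusted p = 0.131) did not pass in limma without a replicate term. For 5 of 9 members the 4 stimulated samples all lay on the same side of the 4 unstimulated ones, as did 36.0% of all genes.

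Scaling to equal totals shifted all genes alike. The summed normalized counts of the stimulated samples exceeded those of the unstimulated ones (8470249 to 9489294 against 6587737 to 6951788), and rescaling to equal totals moved the median log2 fold change of all genes from 0.00 to -0.42 for the averaged stimulation effect. The decreases of Elmo2 (-1.62), Dock1 (-1.01) and Dock2 (-1.08) passed limma under this scaling as well, whereas Crk turned to -0.040 (limma adjusted p = 0.767), Rac2 to -0.015 and Rac1 to -0.16. Elmo1 (-1.02) and Vav1 (-0.39) were called lower in addition, beside 6365 lower and 1814 higher of all 16362 genes tested under this scaling. Relative to the median gene, the changes were nearly the same under both scalings, with 0.38 for Crk under each, 0.41 for Rac2, 0.26 for Rac1 and -1.20 for Elmo2, and Vav1 stood at 0.04 from the median gene. Quantile normalization, which does not shift all genes alike, left Elmo2 (-1.23), Elmo1 (-0.61) and Dock1 (-0.60) near these values relative to the median gene, and put Dock2 at -1.10, Crk at 0.17, Rac2 at 0.035, Rac1 at -0.037 and Vav1 at -0.31. The calls of Elmo2 and Dock1 held in all 17 alternatives, over ranges of adjusted p up to 0.0041 and 0.0369. That of Dock2 was lost without Ctrl replicate 1 or 2, LPS replicate 1, Eff replicate 2 or LPSEff replicate 1 (adjusted p from 0.0529 to 0.0769). That of Crk held in 7 of 17 and was lost without Ctrl replicate 1 or 2, LPS replicate 2, Eff replicate 1 or 2, or LPSEff replicate 1 or 2 (adjusted p from 0.0608 to 0.100).

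**Figure D3:**
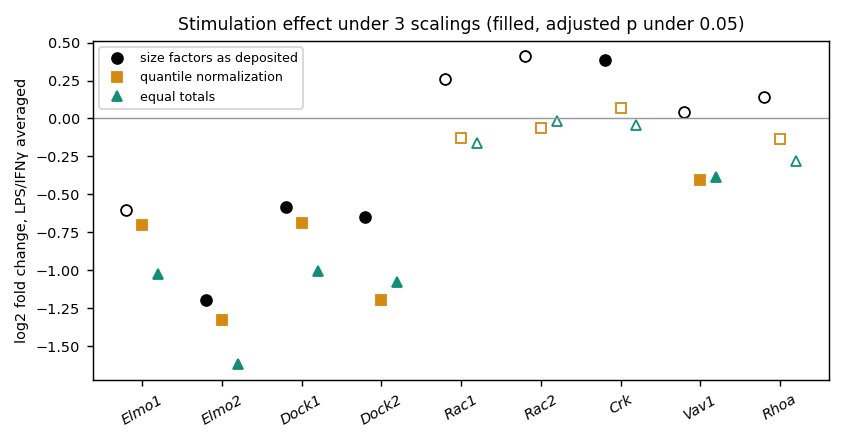
Log2 fold change of stimulated against unstimulated Mϕ, averaged over naïve and efferocytic cells (y axis), for the 9 tested genes (x axis) with size factors as deposited, quantile normalization and equal totals. Filled symbols mark a limma adjusted p under 0.05, and Elmo2, Dock1 and Dock2 are below 0 and filled under all 3 scalings, whereas Rac1, Rac2, Vav1 and Rhoa change sign and Crk changes sign with equal totals (-0.040), which shifts the median gene to -0.42.

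For efferocytosis itself, none of the engulfment genes was called by limma, edgeR or DESeq2 without a replicate term. In Eff vs Ctrl, limma called 0 of 9 members, with 0 at an unadjusted p under 0.05 and 0 by edgeR and DESeq2, beside 0.251% of all genes called. The log2 fold changes lay between -0.21 (Dock2) and 0.15 (Crk). In LPSEff vs LPS, limma called 0 of 9, with 1 at an unadjusted p under 0.05 (Elmo1) and 0 by edgeR and DESeq2, beside 0.773% of all genes. For the effect of efferocytosis averaged over both contexts, limma called 0 of 9, with 0 at an unadjusted p under 0.05, 0 called by edgeR and DESeq2, beside 1.92% of all genes. No member had its 4 efferocytic samples all above or all below its 4 naïve ones, which 4.41% of all genes had. The 95% intervals of the averaged effect left room for a change from 0.765-fold to 1.26-fold for Elmo2 and from 0.503-fold to 1.02-fold for Elmo1.

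The stimulation effect was compared between naïve and efferocytic Mϕ as an interaction. Limma called 0 of 9 members and 0% of all genes, 311 of which had an unadjusted p under 0.05, with 0 members at an unadjusted p under 0.05 and 0 called by edgeR and DESeq2. Elmo1 had the difference of greatest size, -0.62 on the log2 scale with a 95% interval from -1.64 to 0.40.

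Ratios of paired genes within a sample do not depend on the size factor. The Elmo1/Elmo2 ratio of normalized counts was 0.684 and 0.831 in Ctrl samples, 1.16 and 1.51 in LPS samples, 0.643 and 0.633 in Eff samples and 0.780 and 0.885 in LPSEff samples, so that it was highest in the 2 LPS samples. Per kilobase the ratio in these samples was 0.853 and 1.117. Stimulated samples were higher by 0.60 on the log2 scale (exact two-sided permutation p = 0.0571, adjusted p = 0.171 over 6 tests). The Dock1/Dock2 ratio was 0.204 and 0.219 in Ctrl samples, 0.252 and 0.160 in LPS samples, 0.282 and 0.253 in Eff samples and 0.329 and 0.289 in LPSEff samples. All 4 efferocytic samples lay above the 4 naïve ones, with a 1.39-fold higher mean. The exact permutation p of 0.0286 is the smallest that 4 samples against 4 allow. Adjusted over 6 tests it became 0.171, so that 1 ratio alone at this smallest p could not pass, whatever its values. The Rac1/Rac2 ratio lay between 0.601 and 0.931, with exact permutation p of 0.429 for stimulation and 0.171 for efferocytosis.

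**Figure D4:**
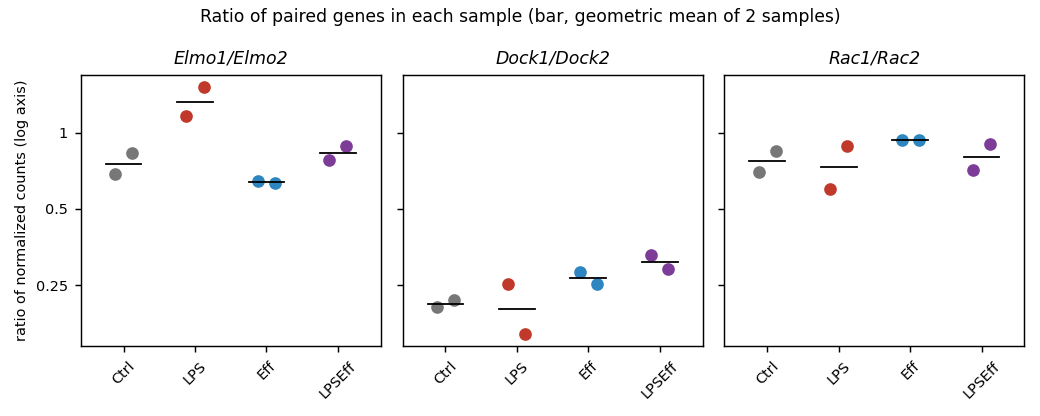
Ratio of normalized counts of Elmo1 to Elmo2, Dock1 to Dock2 and Rac1 to Rac2 (y axis, log scale) in each sample of the 4 groups (x axis), with the geometric mean of 2 samples as a bar. The ratios are not corrected for gene length, the Elmo1/Elmo2 ratio is highest in the 2 LPS samples (1.16 and 1.51), and the Dock1/Dock2 ratio is at least 0.253 in all Eff and LPSEff samples and at most 0.252 in the others.

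The genes with the most similar pattern over the 8 samples were found by Pearson correlation of log2 values among 16309 genes. For Elmo2 these were Wdr7 (r = 0.998), Tmem154 (0.995) and Arl8b (0.995), and for Dock1 they were Ttll1 (0.992), Mrm3 (0.990) and Ankrd28 (0.989). These 8 points come from only 4 conditions and share their libraries with the gene they are compared to. Elmo2 itself correlated with Dock1 at 0.914 and with Dock2 at 0.881.

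The neighbourhood of the machinery was described by 8 lists with 118 other genes of the pathway, of which 111 were tested. In LPS vs Ctrl 21 were higher and 12 lower, 29.7% of those tested, and in LPSEff vs Eff 11 were higher and 12 lower, 20.7% of those tested, beside 24.0% and 19.7% of all genes. The median log2 fold change of the pathway genes was 0.29 and 0.12, against -0.01 and 0.01 for all genes. By list, it was highest for the receptors (1.89 and 1.44), followed by the adaptors and kinases (0.58 and 0.40) in LPS vs Ctrl. It was 0.40 and 0.24 for the WAVE and Arp2/3 branch, 0.36 and 0.46 for the NADPH oxidase, 0.16 and 0.07 for the RhoA effectors, 0.23 and -0.03 for the other DOCK and ELMO genes and 0.06 and -0.04 for the GTPase-activating proteins and GDIs. The other exchange factors had the lowest median (-0.39 and -0.46). With equal totals the numbers turned to 10 higher and 26 lower in LPS vs Ctrl and to 6 higher and 30 lower in LPSEff vs Eff, as those of all genes turned from 2015 higher and 1895 lower to 1407 and 4319, and from 1753 and 1460 to 1210 and 4366.

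Of the 10 other DOCK and ELMO genes, 1 rose and 2 fell in LPS vs Ctrl. Dock3, which encodes an ELMO-binding exchange factor, was 4.43-fold lower (27.3 ± 7.07 against 124 ± 24.4 normalized counts, SD, n = 2) and Dock5, a Rac exchange factor of myeloid cells, 1.76-fold lower. Dock4, also an exchange factor that binds ELMO, was 2.08-fold higher (1596 ± 423 against 776 ± 255, SD, n = 2), with adjusted p = 0.0493 in limma, and did not pass with equal totals or quantile normalization. In LPSEff vs Eff, Dock3 (4.13-fold) and Dock5 (1.80-fold) were lower and none was higher.

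Among 17 other exchange factors, 2 rose and 6 fell in naïve Mϕ, and 0 rose and 6 fell in efferocytic Mϕ. Vav2, a relative of Vav1 (2.76-fold), and the Rac exchange factor Tiam1 (2.72-fold) were lower in LPS than in Ctrl. Arhgef6, which encodes the PAK-binding exchange factor αPIX, was 3.98-fold lower in LPSEff than in Eff, where Tiam1 was 3.47-fold lower. Prex1, an exchange factor driven by phosphoinositides and Gβγ, was 1.78-fold higher in LPS than in Ctrl, and Arhgef2, a microtubule-bound RhoA exchange factor, 1.73-fold higher. Neither of these rises passed with equal totals, nor that of Prex1 with quantile normalization. Vav2 was also called lower in LPSEff vs Eff (2.30-fold) and Arhgef6 in LPS vs Ctrl (2.61-fold).

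The adaptors and kinases upstream of Rac showed 6 rises and 0 falls among 15 in LPS vs Ctrl, and 4 rises and 1 fall in LPSEff vs Eff. The tyrosine kinase gene Src was 5.94-fold higher in LPS (2069 ± 37.5 against 349.9 ± 61.3, SD, n = 2) and 5.72-fold higher in LPSEff. Syk, a tyrosine kinase activated by Fc receptors, was 2.36-fold higher in LPSEff than in Eff (6573 ± 41.4 against 2790.2 ± 26.2, SD, n = 2), and 2.51-fold higher in LPS than in Ctrl, and its rise in LPSEff did not pass with quantile normalization (log2 fold change 0.49, limma adjusted p = 0.126). The adaptor Nck2 was 3.92-fold higher in LPS than in Ctrl. Nedd9, a docking protein for Crk, was 2.58-fold lower in LPSEff than in Eff.

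Receptors that feed the module showed 3 rises and 1 fall among 9 in each context. Itgb5, the β5 partner of αv integrin in uptake of apoptotic cells, was 3.03-fold lower in LPS and 2.23-fold lower in LPSEff. Its partner Itgav was 4.34-fold higher in LPS than in Ctrl and 4.18-fold higher in LPSEff than in Eff, the phosphatidylserine-bridging receptor kinase Mertk 3.70-fold and 4.59-fold higher, and the scavenger receptor Scarf1 7.09-fold and 5.71-fold higher.

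Downstream of Rac, 5 of 27 genes of the WAVE and Arp2/3 branch rose and 1 fell in LPS vs Ctrl, and 1 rose and 0 fell in LPSEff vs Eff. Baiap2, whose product IRSp53 links Rac to the WAVE complex, was 1.99-fold lower and Actg1, which encodes γ-actin, 1.67-fold higher in LPS than in Ctrl, the latter not with equal totals (limma adjusted p = 0.228). The kinase gene Pak3 was called higher with 15.5 and 11.2 normalized counts in LPS against 0 and 1.16 in Ctrl. Cyfip1, a WAVE complex subunit that binds Rac, was 1.62-fold higher in LPS than in Ctrl and 1.48-fold higher in LPSEff than in Eff, where it turned to -0.072 on the log2 scale with quantile normalization. Of the 5 NADPH oxidase genes, which RAC2 activates, 2 rose in LPS vs Ctrl and 1 in LPSEff vs Eff. Cybb, the catalytic subunit, was 3.22-fold and 5.81-fold higher, and Ncf1, its cytosolic organizer, 2.01-fold higher in LPS. With quantile normalization the log2 fold change in LPS vs Ctrl went from 1.69 to 0.82 for Cybb, which kept its call, and to 0.22 for Ncf1, which lost it (limma adjusted p = 0.465).

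Of 14 RhoA effectors, 1 rose and 0 fell in each context, namely Ppp1r12a, a myosin phosphatase subunit (2.09-fold, LPS vs Ctrl), and Rock1, the kinase that drives myosin contraction (1.70-fold, LPSEff vs Eff). With equal totals neither rise passed (limma adjusted p = 0.0659 and 0.231), nor that of Rock1 with quantile normalization (0.112). Among 14 GTPase-activating proteins and GDIs, 1 rose and 2 fell in each context. The Rac-directed GTPase-activating genes Chn2 (3.59-fold and 3.68-fold) and Racgap1 (2.39-fold and 2.43-fold) were lower, and Abr was 1.95-fold and 1.87-fold higher. The rises of Abr were lost with quantile normalization (log2 fold changes 0.28 and 0.14, limma adjusted p = 0.253 and 0.609), and that in LPSEff vs Eff with equal totals (0.0713).

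Leaving out samples was applied to the 37 calls by which these pathway genes were named. Both calls of Dock3, Src, Itgb5, Scarf1 and Cybb held whichever sample was left out. So did those of Itgav and Pak3 in LPS vs Ctrl and of Arhgef6, Syk and Mertk in LPSEff vs Eff. The calls of Syk, Mertk, Arhgef6 and Cyfip1 in LPS vs Ctrl and of Itgav and Vav2 in LPSEff vs Eff were not covered. All others of the 37 were lost without at least 1 of the compared samples. That of Cyfip1 in LPSEff vs Eff was lost whichever of the 8 samples was left out. Without Ctrl replicate 1, the sample of lowest depth, the calls of Dock4, Vav2, Arhgef2, Prex1, Nck2, Actg1, Ncf1, Ppp1r12a and Abr in LPS vs Ctrl were lost. Without either Ctrl replicate 2 or LPS replicate 1, those of Dock5, Dock4, Tiam1, Baiap2, Actg1, Chn2 and Racgap1 were lost. Without either Ctrl replicate 2 or LPS replicate 2, those of Dock4, Prex1, Baiap2, Actg1, Ncf1 and Ppp1r12a were lost. In LPSEff vs Eff, the calls of Tiam1, Nedd9, Chn2, Racgap1, Dock5, Rock1 and Abr were lost without either Eff replicate 2 or LPSEff replicate 1.

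**Figure D5:**
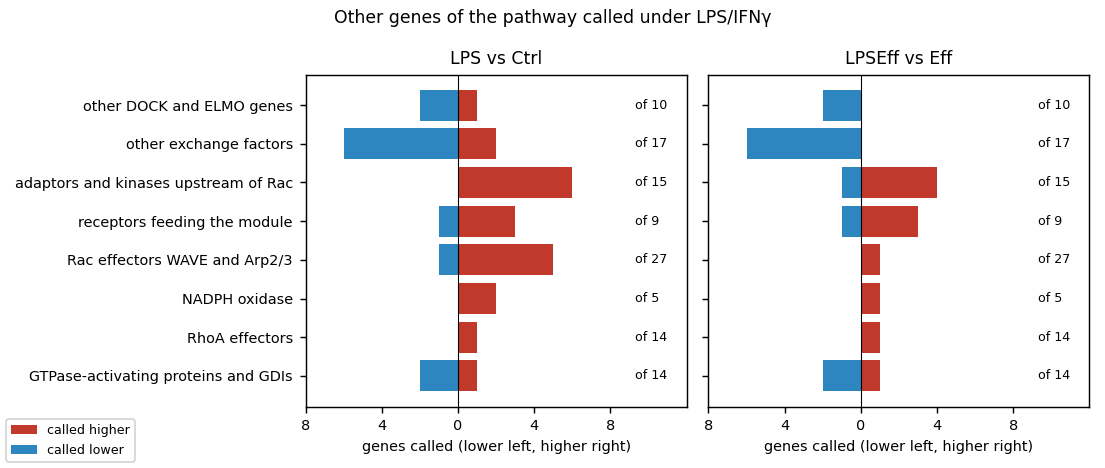
Number of genes called higher (right, red) and lower (left, blue) by limma in each of 8 lists of other pathway genes (y axis) for LPS vs Ctrl and LPSEff vs Eff, with the number tested at the right. The other exchange factors have 6 genes called lower in each comparison, and the adaptors and kinases have 6 and 4 called higher.

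For efferocytosis, limma without a replicate term called 0 of 111 in Eff vs Ctrl (4 at an unadjusted p under 0.05, 0 by edgeR, 1 by DESeq2, namely Pak3) and 0 of 111 in LPSEff vs LPS (12 at an unadjusted p under 0.05, 0 by edgeR, 3 by DESeq2, namely Arhgef6, Bcr and Dock8). Of all 16309 genes, limma called 41 and 126 in these comparisons, with 1000 and 1679 at an unadjusted p under 0.05. EdgeR called 14 and 126 of 16309, and DESeq2 204 of 15676 and 368 of 15360. Averaged over both contexts, limma called only Pak3, higher in efferocytic samples, as did edgeR, whereas DESeq2 called 5, namely Arhgef6, Bcar1, Bcr, Ncf1 and Pak3. Pak3 is a gene of low counts, with 0 and 1.16 normalized counts in Ctrl and 15.5 and 11.2 in LPS. With a filter of a mean of at least 50, limma called 0 of 106 pathway genes for this averaged effect. The Pak3 call is outside the 37 calls above, and leaving out some single samples lost it. Of all 16309 genes, limma called 313, edgeR 311 and DESeq2 644 for this averaged effect. The interaction gave 0 of 111 by limma (1 at an unadjusted p under 0.05), edgeR and DESeq2.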

How the data were processed

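Total RNA-seq of 8 BMDM samples was re-analysed. Per the labels and the study's methods, the authors depleted rRNA, trimmed reads with cutadapt, removed rRNA with Bowtie2, mapped to mm39 with STAR, counted with HTSeq in its default mode, which uses strand, and used DESeq2. The annotation release is not given in the sources used here. The deposited values are a signal per gene, normalized counts, which were whole multiples of a single step per sample for 100% of values (tolerance 0.05), so that reads could be recovered. Names and positions came from GENCODE vM39 (GRCm39), which held 54749 of 55359 identifiers.

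Log2(normalized count + 1) of 16309 genes with a mean of at least 10 was fitted with limma 3.58.1 (R 4.3.3, trend), with 4 group means and 4 residual degrees of freedom, and adjusted over all genes (Benjamini-Hochberg, threshold 0.05). Fold changes are on this scale. Exact permutations over samples tested paralogue ratios. Scripts were tested on simulated data. Alternatives were other pseudocounts, filters and scalings, a replicate block, edgeR 4.0.16 and DESeq2 1.42.0 on recovered reads, only the compared groups, and leaving out each sample. On the recovered reads, edgeR called 3991 genes in LPS vs Ctrl and 3509 in LPSEff vs Eff, against 3910 and 3213 with limma.

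Members and lists were chosen with earlier results of these data known. Named are all members, from each list the 2 largest called rises and falls of a comparison, and the 3 genes nearest in pattern to the 2 members with the largest called changes, and leading markers. Pak3, Bcr, Bcar1, Dock8, Arhgef6 and Ncf1 under efferocytosis, and Daglb, were named after their values were seen. Some pathway genes and a sequence comparison are not reported here.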

Additional observations from a re-analysis of the deposited data

How the results depend on the processing

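The decreases of Elmo2 in LPSEff vs Eff and of Elmo2 and Dock1 in the averaged stimulation effect kept their direction and their call in every alternative run. The design of 2 samples per group and 3481288 reads in the shallowest sample limits precision, and a sample left alone in its group is assumed to vary like the others. The cause of the changes below was not tested.

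Equal totals and quantile normalization moved the median gene of the averaged stimulation effect to -0.42 and -0.09. With equal totals, LPS vs Ctrl gave -0.077 for Rac1, -0.058 for Crk and -0.33 for Rhoa, LPSEff vs Eff gave -0.25 for Rac1, -0.031 for Rac2, -0.022 for Crk, -0.30 for Vav1 and -0.23 for Rhoa with 4 members called lower, and the averaged effect gave -0.16 for Rac1, -0.015 for Rac2, -0.040 for Crk, -0.39 for Vav1 and -0.28 for Rhoa with 0 called higher and 5 lower. The interaction became -0.016 for Dock1 and -0.031 for Rac2. With quantile normalization, LPS vs Ctrl gave -0.071 for Rac1, -0.098 for Rac2 and -0.20 for Rhoa, LPSEff vs Eff gave -0.19 for Rac1, -0.022 for Rac2, -0.29 for Vav1, -0.071 for Rhoa and -0.072 for Cyfip1 with 4 members called lower, and the averaged effect gave -0.13 for Rac1, -0.060 for Rac2, -0.41 for Vav1 and -0.14 for Rhoa with 0 called higher and 5 lower. The interaction of Dock1 became -0.0079. Over all genes, the averaged effect had 1814 called higher and 6365 lower of 16362 tested with equal totals. With quantile normalization it had 2667 higher and 3773 lower of 16309, and LPSEff vs Eff had 1640 higher and 2100 lower.

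Members called lower numbered 1 in LPS vs Ctrl and 3 in LPSEff vs Eff with DESeq2, which gave an interaction of -0.0094 for Rac2, and 2 in LPSEff vs Eff with edgeR or a mean of at least 50. A filter of a mean above 0, which tests more genes, left 1 lower in LPS vs Ctrl and 0 higher in the averaged effect, and a fit of only the compared groups 1 and 2 lower in LPS vs Ctrl and LPSEff vs Eff.

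The labels give all groups the replicate numbers 1 and 2 without saying that a number marks a shared preparation, and same-numbered samples deviated together with correlations of 0.404 to 0.595 across 16309 genes. With the replicate block, members called were 1 higher (Rac2) and 3 lower (Elmo2, Dock1, Dock2) in LPS vs Ctrl, 2 higher and 4 lower in LPSEff vs Eff, 1 lower in LPSEff vs LPS (Elmo1, limma adjusted p = 0.0347), 3 higher and 4 lower in the averaged stimulation effect, where Elmo1 (0.0034), Rac2 (0.0047) and Rac1 (0.0467) were added, and 1 lower in the averaged efferocytosis effect (Elmo1, 0.0452). Over all genes the block raised the calls from 3910 to 6717 in LPS vs Ctrl, 3213 to 6033 in LPSEff vs Eff, 41 to 436 in Eff vs Ctrl, 126 to 1137 in LPSEff vs LPS and 313 to 1845 in the averaged efferocytosis effect. In the averaged stimulation effect the calls rose from 5946 to 8592 of 16309 genes. Equal totals gave 5576 in LPSEff vs Eff, edgeR 14 and DESeq2 204 in Eff vs Ctrl, and DESeq2 368 and 644 in LPSEff vs LPS and the averaged efferocytosis effect. The 111 pathway genes tested were called 43 higher and 20 lower in LPS vs Ctrl and 31 higher and 24 lower in LPSEff vs Eff with the block, which for efferocytosis called 2 of them in Eff vs Ctrl (Cybb and Pak3), 8 in LPSEff vs LPS (1 higher and 7 lower) and 17 in the averaged effect (7 higher and 10 lower). With quantile normalization they were 12 higher and 20 lower in LPS vs Ctrl and 6 higher and 24 lower in LPSEff vs Eff.

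Leaving out single samples, members called lower ranged from 0 to 1 in LPS vs Ctrl and from 1 to 3 in LPSEff vs Eff, and members called higher in the averaged stimulation effect from 0 to 1. Log2 changes of uncalled members that crossed 0 ranged as follows. In LPS vs Ctrl, Elmo1 ranged from -0.75 to 0.18 and Rhoa from -0.029 to 0.16. In LPSEff vs Eff and the averaged stimulation effect, Vav1 ranged from -0.014 to 0.31 and from -0.040 to 0.12. In Eff vs Ctrl, Rac1 ranged from -0.024 to 0.21, Vav1 from -0.13 to 0.037 and Rhoa from -0.0035 to 0.19. In LPSEff vs LPS, Elmo2 ranged from -0.39 to 0.15, Rac1 from -0.075 to 0.021 and Rac2 from -0.39 to 0.069. In the averaged efferocytosis effect, Elmo2 ranged from -0.16 to 0.11, Rac1 from -0.025 to 0.093 and Vav1 from -0.020 to 0.14. The interaction of Elmo2 ranged from -0.46 to 0.079, of Dock1 from -0.11 to 0.17, of Dock2 from -0.55 to 0.056 and of Rac2 from -0.21 to 0.25, and the Dock1/Dock2 log2 ratio under stimulation from -0.067 to 0.28.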
